A study of Mus musculus with 21 samples.

Results

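The genes described are those that encode collagen alpha chains. They were taken as every named gene on the array whose symbol is Col, a number, the letter a and a second number. This gave 42 of the 19505 named genes, each measured by 1 probe set, and the choice used no measured value. RefSeq lists 44 mouse genes of this pattern, of which Col7a1 and Col12a1 are not named here and were not analysed. By the form of the protein, 11 of the 42 encode fibrillar chains, 6 beaded filament chains, 8 fibril-associated chains, 6 basement membrane chains, 3 chains of hexagonal networks, 2 multiplexins and 4 transmembrane chains, and 2 fall outside these classes.

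Expression was measured with Clariom S arrays, 1 per animal, in subcutaneous tumours grown from Hepa1-6 cells, a mouse hepatoma line, in 21 female C57BL/6J mice injected at 5 to 6 weeks of age. The arms were combination (5 mice, lenvatinib with anti-PD1), anti-PD1 (5 mice, antibody clone J43), lenvatinib (5 mice) and placebo (6 mice, the drug's vehicle with polyclonal IgG). Whether mice given lenvatinib alone also had the IgG, and mice given anti-PD1 alone the vehicle, is not given in the sources used here, so a single agent set against placebo may also differ in these. Lenvatinib, a receptor tyrosine kinase inhibitor, was given daily at 10 mg/kg by gavage, and the antibody at 10 mg/kg every 3 days for 5 doses, starting when tumours had reached 200 mm3. All tumours were collected on day 13 after assignment, and each RNA came from 30 mg of whole tissue. In such bulk tissue, fewer cells of a type and less RNA per cell cannot be told apart. All tumours descend from 1 injected cell line, and a flank tumour is not in its organ of origin.

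Collagens are triple helices of alpha chains that are assembled inside the cell, secreted, trimmed and cross-linked. Fibrillar collagens such as types I, III and V form the tensile fibres of connective tissue, type VI forms fine beaded filaments around cells, and type IV forms the sheet of basement membranes beneath epithelium and around blood vessels. In solid tumours, most fibrillar collagen is made by fibroblasts of the host, while basement membrane chains are made by endothelial and epithelial cells as well.

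Most of these genes gave dim signals. The mean log2 signal of an arm was above the 95th percentile of the array's negative-control probes for 2 genes, Col1a1 and Col3a1, in at least 1 arm. Each was above that level on 12 of 21 arrays. On at least 1 array, 7 genes were above it, the others being Col1a2 (5 arrays), Col18a1 (2), Col28a1 (2), Col6a3 (1) and Col13a1 (1). Against the lower bar of the negative controls' median, 37 genes were above it in all 4 arms, 4 genes in some arms, and Col4a5 in none. Signals of different probe sets cannot be ranked against each other, so levels below are compared only between tumours for the same gene.

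The arrays fell into 2 sets by their hybridization controls, transcripts added to every sample before hybridization. The controls averaged 11.3 to 11.7 on 6 arrays and 10.3 to 10.9 on the other 15, and the 6 brighter ones also had narrower signal distributions, with interquartile ranges of 2.41 to 2.82 against 3.00 to 3.25. These 6 arrays are combination mouse 1, anti-PD1 mouse 1, lenvatinib mice 1 and 2, and placebo mice 4 and 6. Between the bright and the other arrays, 9 of 42 collagen genes were higher on the bright ones and 0 lower at a limma adjusted p under 0.05, beside 21% of all probe sets higher and 17.4% lower. Col4a3 differed by 1.03 ± 0.12 (SE), Col4a2 by 0.68 ± 0.15 and Col1a1 by 0.66 ± 0.21. Of 11 hepatoma markers, 5 (Afp, Alb, Apoe, Krt8 and Krt18) were above the 95th percentile of the negative controls in all 4 arms, Ttr in 1 arm, and Apoa1, Apoa2, Serpina1a, Gpc3 and Hnf4a in none. All 11 were above the negative controls' median in all 4 arms.

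**Figure D1:**
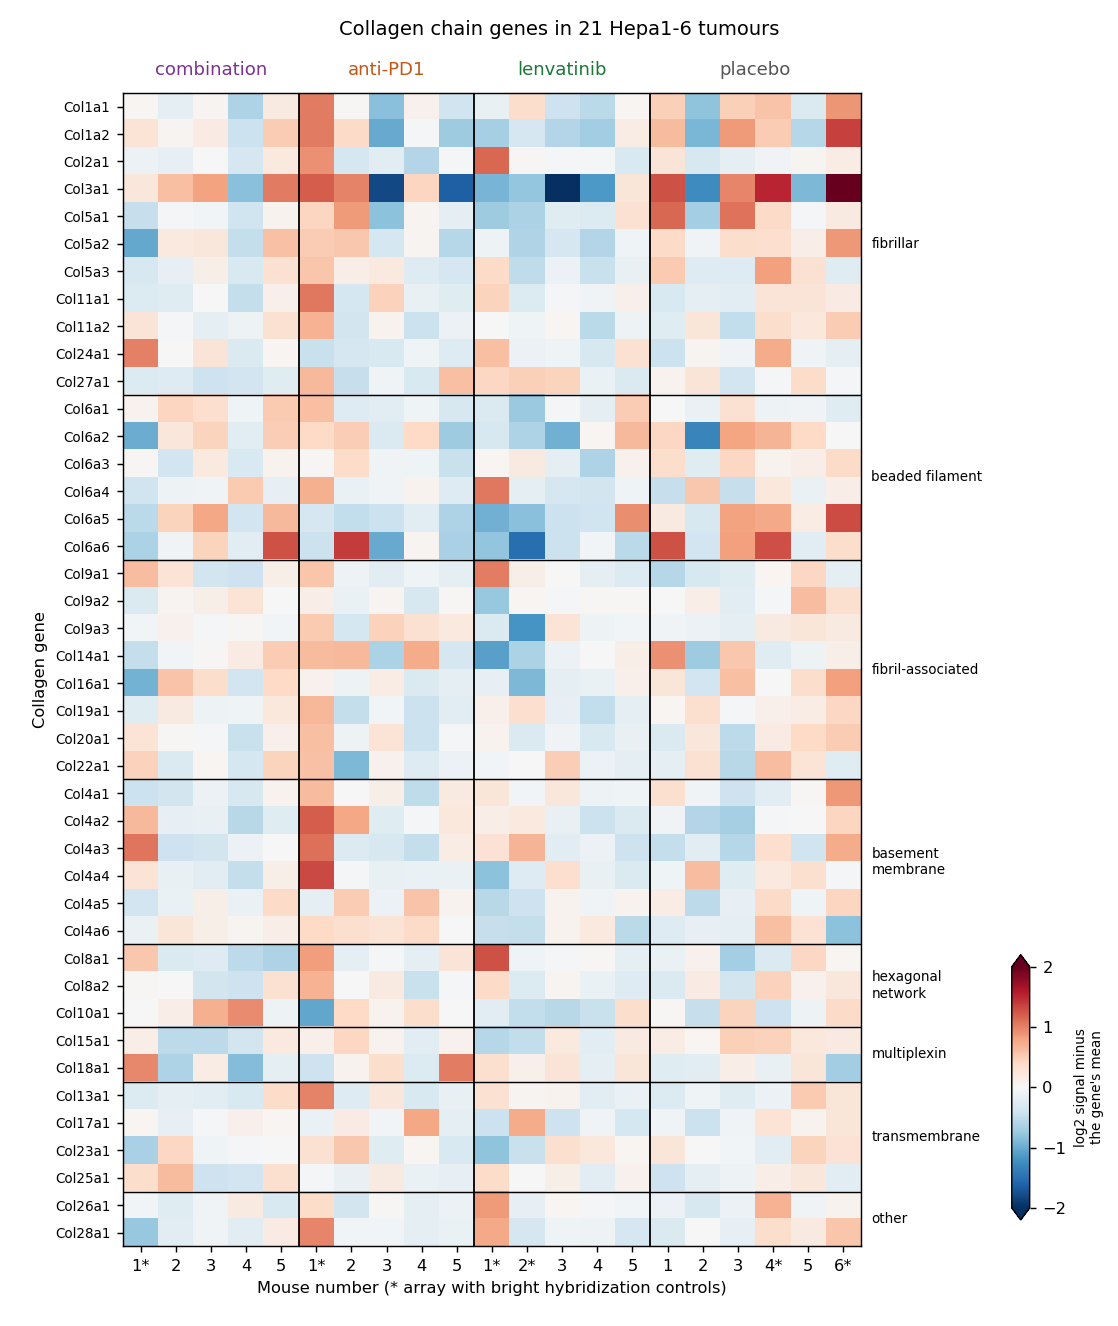
Log2 signal of each of the 42 collagen genes (rows, grouped by class) in each of the 21 tumours (columns, by arm), after subtracting the gene's mean over the 21 mice; red is higher and blue is lower, and the colours stop at 2 in each direction. Col3a1 had the widest range, 4.45, and anti-PD1 mouse 1 held the highest value of 14 of the 42 genes.

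No collagen gene passed an adjusted p of 0.05 in any of the 9 comparisons fitted with limma over all 22206 probe sets, and 0% of all probe sets passed in any of them. The comparisons share tumours and are not independent of each other. What follows gives sizes, errors and counts, and no difference between arms described as a value below is a call.

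Lenvatinib against placebo gave the lowest median of the 6 pairs of arms. Of the 42 genes, 29 lay below 0, beside 50.9% of all probe sets, and the median log2 difference was -0.22, against -0.0064 over all probe sets. Without the 6 bright arrays 27 lay below 0 and the median was -0.11, and with each array weighted by its own spread it was -0.14. At an unadjusted p under 0.05, 6 genes were lower and 0 higher, beside 4.05% and 2.92% of all probe sets. They were 3 fibrillar chains (Col3a1, Col5a1 and Col5a2), 2 beaded filament chains (Col6a5 and Col6a6) and the multiplexin Col15a1. By class, 7 of 11 fibrillar chains lay below 0 with a median of -0.32, 5 of 6 beaded filament chains with -0.34, 7 of 8 fibril-associated chains with -0.26, and 4 of 6 basement membrane chains with -0.10. Without the 6 bright arrays the counts were 9, 5, 5 and 2, with medians of -0.26, -0.17, -0.13 and 0.05 in the same order of classes. The fibrillar median was -0.18 without placebo mouse 4, and the beaded filament median was -0.53 without placebo mouse 2.

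Col3a1 encodes the only chain of type III collagen, which forms the thin fibres of soft connective tissue. Its log2 signals in the 5 lenvatinib tumours were 6.66, 6.82, 5.34, 6.44 and 7.84. In placebo tumours the lowest, median and highest were 6.34, 8.72 and 9.79. Only lenvatinib mouse 5 came near the upper placebo tumours, and placebo mice 2 and 5 lay within the lenvatinib range, so the arms overlapped. The difference was -1.61 ± 0.65 (SE), with a limma adjusted p of 0.693. Leaving out each mouse in turn kept it between -1.99 and -1.29, and it was -1.08 without the 6 arrays with bright controls.

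The chains of type I collagen, the main fibre-forming collagen, stood closer to placebo. Col1a1 signals were 7.51, 8.002, 7.23, 7.12 and 7.68 in lenvatinib tumours, and 6.84, 8.12 and 8.54 as the lowest, median and highest of the placebo tumours. Col1a2 signals were 6.22, 6.56, 6.31, 6.19 and 7.04 in lenvatinib tumours, against 5.98, 7.46 and 8.26 in placebo tumours. Both genes had their highest and their lowest value of these 11 tumours in the placebo arm. The differences were -0.36 ± 0.31 (SE) for Col1a1, with a limma adjusted p of 0.804, and -0.74 ± 0.38 for Col1a2, with an adjusted p of 0.693.

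Type V collagen is built into type I fibres and limits their width. Its chain Col5a2 had signals of 6.01, 5.51, 5.78, 5.53 and 6.03 in lenvatinib tumours, and 6.04, 6.46 and 6.98 as the lowest, median and highest in placebo tumours. It was the single collagen gene whose arms did not overlap in this comparison, beside 0.302% of all probe sets not overlapping and lower, and the gap between the arms was narrow. The difference was -0.67 ± 0.26 (SE; limma adjusted p = 0.693). Col5a1 stood at -0.66 ± 0.31, with lenvatinib signals of 4.68 to 5.70 and placebo signals of 4.72 to 6.55, which overlapped.

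Among type VI chains, Col6a6 had signals of 4.48, 3.76, 4.84, 5.21 and 4.73 in lenvatinib tumours, against 4.88, 5.85 and 6.55 as the lowest, median and highest in placebo tumours. Only lenvatinib mouse 4 lay inside the placebo range. The difference was -1.18 ± 0.42 (SE; limma adjusted p = 0.693). Col6a5 stood at -0.81 ± 0.33 with all arrays and at -0.17 without the 6 bright arrays, and its signals were close to the median of the negative controls, above it on 11 of 21 arrays. Col6a3, a chain shared by the common forms of type VI collagen, had signals of 6.29 to 7.10 in lenvatinib tumours and 6.68 to 7.33 in placebo tumours, a difference of -0.28 ± 0.18, or -0.15 without lenvatinib mouse 4. Col16a1, a fibril-associated chain, stood at -0.53 ± 0.26.

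The main basement membrane chains stood close to 0. Col4a1 and Col4a2 together form the type IV collagen of vessels. Col4a1 signals were 6.51, 6.21, 6.50, 6.16 and 6.19 in lenvatinib tumours, against 5.86, 6.24 and 7.14 in placebo tumours, and the difference was -0.04 ± 0.21 (SE). Col4a2 signals were 5.96, 6.03, 5.68, 5.40 and 5.55 in lenvatinib tumours, against 5.17, 5.79 and 6.27 in placebo tumours, and the difference was 0.04 ± 0.26. Both lenvatinib ranges fell inside the placebo ranges. The direction of both values turned under some settings, given in the closing section.

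The multiplexins lie next to basement membranes and carry fragments that inhibit vessel growth when released. Col15a1 signals were 6.05, 6.13, 6.81, 6.40 and 6.80 in lenvatinib tumours, against 6.66, 6.82 and 7.10 as the lowest, median and highest in placebo tumours. Lenvatinib mice 1, 2 and 4 were below every placebo tumour, and the difference was -0.43 ± 0.18 (SE; limma adjusted p = 0.693), or -0.17 without the bright arrays. Col18a1, the source of endostatin, stood at 0.30 ± 0.29, with lenvatinib signals of 6.63 to 7.16 and placebo signals of 6.14 to 7.08.

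**Figure D2:**
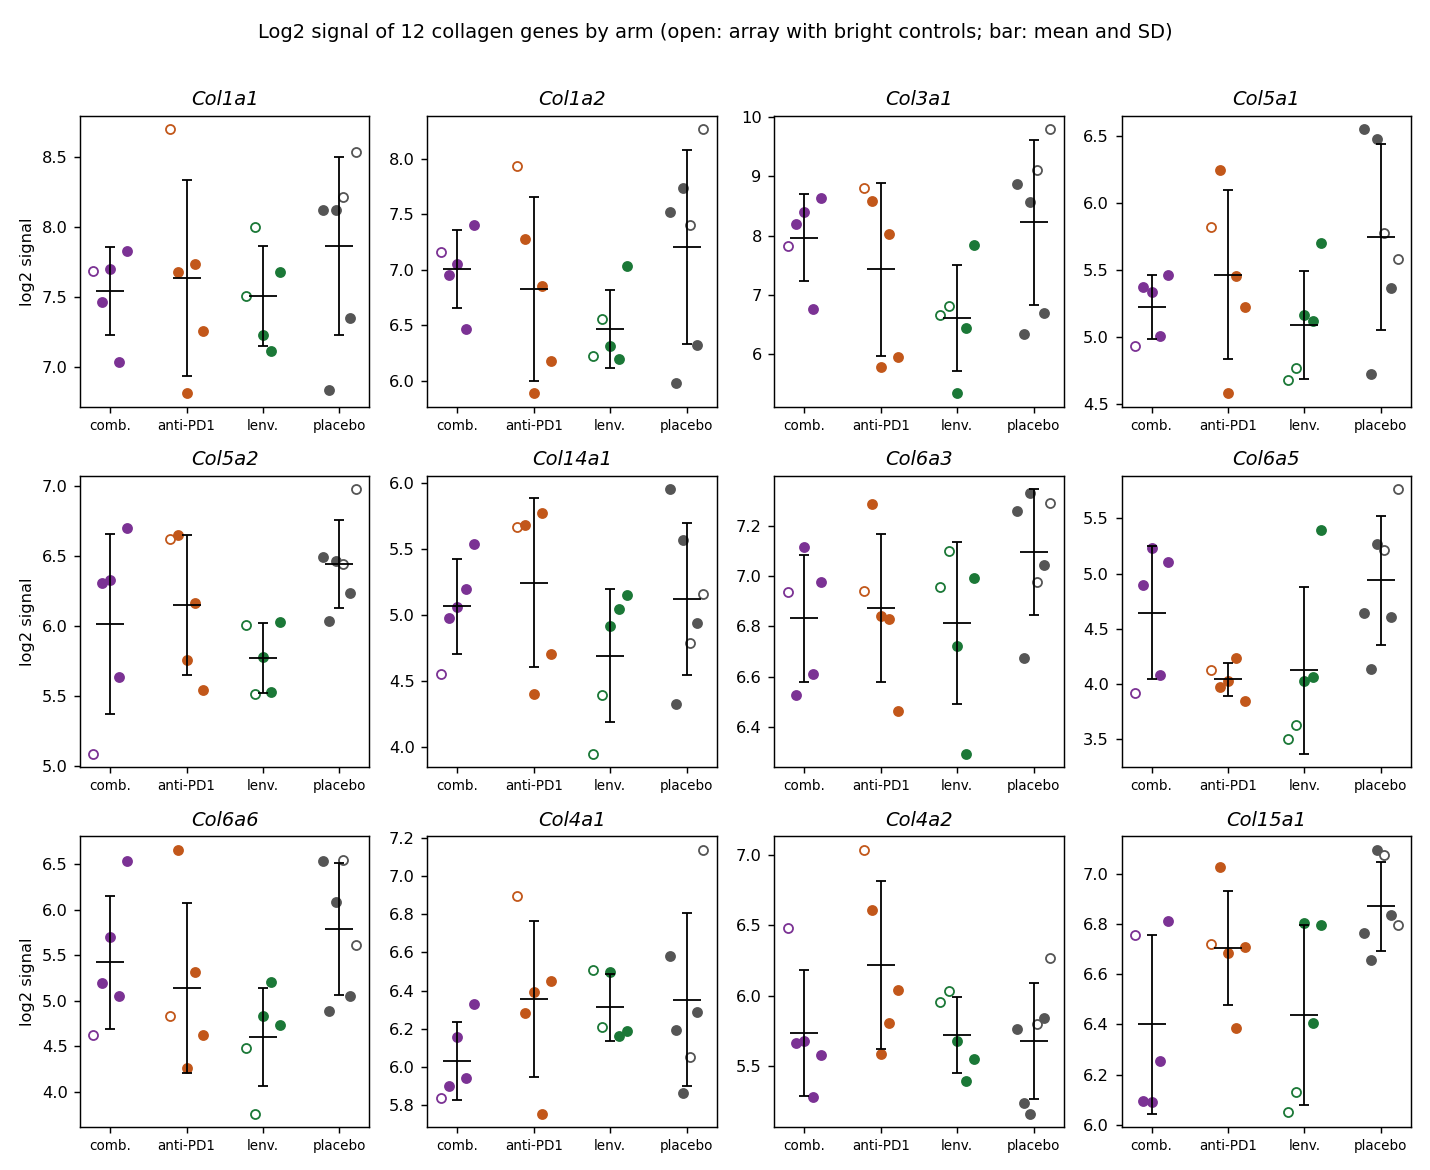
Log2 signal of 12 collagen genes in each tumour, by arm (combination, anti-PD1, lenvatinib, placebo), with the mean and SD as a bar; open points are the 6 arrays with bright controls, and each panel has its own scale. Col5a2 is the gene whose lenvatinib and placebo points do not overlap.

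**Figure D3:**
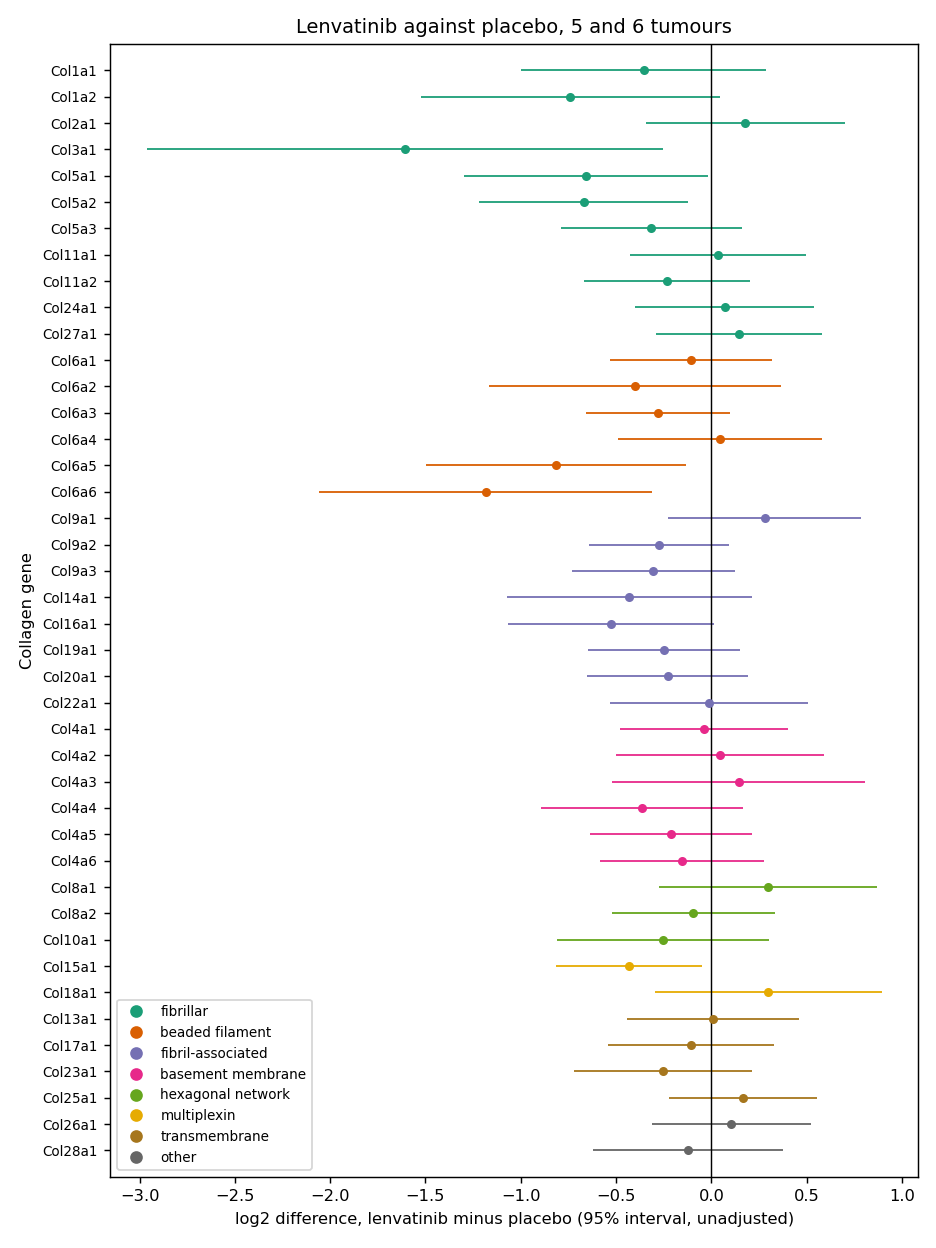
Log2 difference of lenvatinib minus placebo for the 42 collagen genes, coloured by class, with unadjusted 95% intervals. The intervals of 6 genes, all below 0, leave out 0, and no gene passed the adjusted threshold.

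Scores of cell type markers also had different means in these arms. The fibroblast score is the mean over 9 marker genes of the log2 signal minus that gene's mean, and it ran from -1.30 to 0.45 in lenvatinib tumours and from -0.46 to 0.90 in placebo tumours. It averaged -0.63 ± 0.70 (SD) over the 5 lenvatinib tumours and 0.43 ± 0.54 over the 6 placebo tumours, and 8 of its 9 genes were above the negative controls' median in all arms. The adipocyte score, over 7 genes, ran from -2.66 to 0.01 in lenvatinib tumours and from -1.58 to 2.36 in placebo tumours. The dividing cell score, over 4 genes, averaged 0.90 ± 0.38 (SD) in lenvatinib tumours and -0.61 ± 1.59 in placebo tumours, and all 5 lenvatinib tumours were at 0.55 or above. The hepatoma score averaged 0.55 ± 0.29 in lenvatinib tumours and -0.31 ± 0.91 in placebo tumours, the macrophage score -0.33 ± 0.57 and 0.36 ± 0.45, and the T cell score -0.30 ± 0.62 and 0.30 ± 0.26. Pericyte and smooth muscle markers averaged -0.21 ± 0.19 in lenvatinib tumours and 0.21 ± 0.43 in placebo tumours, and endothelial markers -0.35 ± 0.44 and -0.02 ± 0.71. All of these ranges overlapped between the arms. Arrays with bright controls made up 2 of 5 lenvatinib and 2 of 6 placebo tumours. The part of these in the collagen values was not tested.

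Anti-PD1 against placebo gave a median close to 0, -0.02 beside -0.0020 over all probe sets, with 23 of 42 genes below 0 beside 50.4% of probe sets. That count ran up to 32 when anti-PD1 mouse 1 was left out. The classes lay on different sides: 9 of 11 fibrillar chains were below 0, with a median of -0.23, and all 6 basement membrane chains were above 0, with a median of 0.14. Without anti-PD1 mouse 1, which has a bright array, 3 of the 6 were above 0 and their median was 0.05. The fibrillar median was -0.13 without anti-PD1 mouse 3 or without mouse 5, and -0.15 without placebo mouse 4. Col6a5 alone was lower at an unadjusted p under 0.05, beside 2.68% of probe sets, and no collagen gene was higher, beside 1.38%.

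Col6a5 signals in the anti-PD1 tumours were 4.13, 3.98, 4.03, 4.23 and 3.84, and in placebo tumours 4.14, 4.93 and 5.76 were the lowest, median and highest. The anti-PD1 values formed a tight group at the bottom of the placebo range, with only mouse 4 above the lowest placebo tumour. The negative controls' median on these 5 arrays was 3.89, 4.29, 4.03, 4.29 and 4.28, so these values lay about at background. Neither their narrow spread nor the size of the difference can be read as a level of the gene. The difference was -0.90 ± 0.33 (SE; limma adjusted p = 1). Col4a2 signals were 7.04, 6.61, 5.59, 5.81 and 6.04, against 5.17, 5.79 and 6.27 in placebo tumours. Anti-PD1 mice 1 and 2 were above every placebo tumour and the other three lay among them. The difference was 0.54 ± 0.26, and 0.33 without anti-PD1 mouse 1.

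Col4a6, a chain of the type IV collagen of some epithelia and smooth muscle, stood at 0.36 ± 0.21 (SE), with anti-PD1 signals of 5.23 to 5.65 and placebo signals of 4.42 to 5.85. Col1a1 stood at -0.23 ± 0.31, Col3a1 at -0.80 ± 0.65 and Col6a6 at -0.65 ± 0.42. Leaving out 1 mouse moved these widely: Col1a1 was -0.49 without anti-PD1 mouse 1 and -0.02 without mouse 3, Col3a1 was -0.38 without anti-PD1 mouse 3 and -1.17 without placebo mouse 2, and Col6a6 was -1.03 without anti-PD1 mouse 2 and -0.43 without mouse 3. Col3a1 split the anti-PD1 arm, with 8.80, 8.59 and 8.02 in mice 1, 2 and 4 and 5.78 and 5.96 in mice 3 and 5. The endothelial score averaged 0.44 ± 0.88 (SD) over the 5 anti-PD1 tumours and -0.02 ± 0.71 over the 6 placebo tumours, with 7 of its 8 measured genes above the negative controls' median in all arms, and its part in the basement membrane values was not tested.

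In the combination against placebo, 32 of 42 genes lay below 0, beside 50.7% of probe sets, with a median of -0.13 against -0.0036 over all probe sets. Without the 6 bright arrays the count was 22 and the median -0.01. The fibrillar chains had 10 of 11 below 0, or 7 without the bright arrays and 7 without placebo mouse 6 alone. Col15a1 was lower at an unadjusted p under 0.05, 1 of 42 beside 1.3% of probe sets, and 0 were higher beside 1.01%. Its signals were 6.76, 6.09, 6.09, 6.25 and 6.81 in combination tumours, with 6.66 the lowest placebo tumour, so mice 2, 3 and 4 lay below the placebo range and mice 1 and 5 inside it. The difference was -0.47 ± 0.18 (SE; limma adjusted p = 1), and -0.53 without the bright arrays.

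Col3a1 signals in the combination were 7.82, 8.20, 8.40, 6.76 and 8.64, all inside the placebo range of 6.34 to 9.79. The difference was -0.27 ± 0.65 (SE), and its sign turned under some settings. Col1a1 signals were 7.68, 7.47, 7.70, 7.04 and 7.83, a difference of -0.32 ± 0.31. Col5a1 stood at -0.52 ± 0.31. Col6a1, a chain present in every type VI molecule, stood at 0.30 ± 0.20.

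Against lenvatinib alone, the combination had 28 of 42 genes above 0 and 14 below, with 51.2% of all probe sets below, and a median of 0.08. Beaded filament chains had 5 of 6 above 0 with a median of 0.32, and fibril-associated chains 7 of 8 with 0.15. Col3a1 stood at 1.34 ± 0.68 (SE; limma adjusted p = 0.783), with combination mice 1 and 4 inside the lenvatinib range and the other three above it. Col6a6 stood at 0.82 ± 0.44 and Col6a1 at 0.41 ± 0.21, while Col1a1 stood at 0.04 ± 0.32.

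The genes with the smallest p in that comparison were of other kinds. Col10a1, known as the collagen of hypertrophic cartilage, had signals of 4.97, 5.11, 5.68, 5.92 and 4.88 in combination tumours against 4.75, 4.48, 4.42, 4.53 and 5.33 in lenvatinib tumours. Lenvatinib mouse 5 lay among the combination values, and the difference was 0.61 ± 0.28 (SE; limma adjusted p = 0.78). Col27a1, a fibrillar chain of cartilage, had 4.95, 4.95, 4.80, 4.82 and 4.97 in combination tumours against 5.62, 5.69, 5.66, 5.08 and 4.93 in lenvatinib tumours, a difference of -0.50 ± 0.22. They were the 1 gene higher and the 1 gene lower at an unadjusted p under 0.05, beside 3.87% and 2.53% of probe sets. Of 7 cartilage and bone markers, Acan, Sox9, Comp and Bglap were above the negative controls' median in all 4 arms and Matn1, Ibsp and Sp7 in none, and 0 of the 7 were above the 95th percentile in any arm.

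Against anti-PD1 alone, the combination had 28 of 42 genes below 0, beside 51.9% of probe sets, and a median of -0.10. Without the bright arrays the count was 16 and the median 0.05. All 6 basement membrane chains lay below 0, with a median of -0.23, and 4 of 6 without anti-PD1 mouse 1, with a median of -0.17. At an unadjusted p under 0.05, 0 genes were lower and 0 higher, beside 2.79% and 4.85% of probe sets. Col4a2 signals were 6.48, 5.66, 5.68, 5.28 and 5.58 in combination tumours against 7.04, 6.61, 5.59, 5.81 and 6.04 in anti-PD1 tumours. In each arm mouse 1, on an array with bright controls, was the highest, and the difference was -0.48 ± 0.27 (SE; limma adjusted p = 0.806). Col6a5 stood at 0.61 ± 0.34, Col24a1 at 0.49 ± 0.24, Col15a1 at -0.30 ± 0.19, Col3a1 at 0.53 ± 0.68 and Col1a1 at -0.09 ± 0.32.

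Between the agents given alone, 31 of 42 genes were lower with lenvatinib than with anti-PD1, beside 48.5% of probe sets, and the median was -0.13. The count was 22 without anti-PD1 mouse 1. At an unadjusted p under 0.05, Col4a6 and Col9a3 were lower, 2 of 42 beside 3.04% of probe sets, and 0 were higher, beside 1.55%. Col4a6 had 4.78, 4.76, 5.32, 5.44 and 4.70 in lenvatinib tumours and 5.65, 5.56, 5.51, 5.62 and 5.23 in anti-PD1 tumours. Lenvatinib mice 3 and 4 were above the lowest anti-PD1 tumour, and the difference was -0.52 ± 0.22 (SE; limma adjusted p = 0.955). Col9a3, a chain of the cartilage collagen type IX, stood at -0.49 ± 0.22, or -0.27 without lenvatinib mouse 2, and Col4a2 at -0.49 ± 0.27, or -0.29 without anti-PD1 mouse 1. Col3a1 stood at -0.81 ± 0.68 and Col1a1 at -0.13 ± 0.32.

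The interaction asks whether the combination differs from the sum of both agents on the log2 scale. It was above 0 for 25 genes and below 0 for 17 of 42, beside 51.1% of probe sets below, and its median was 0.12. At an unadjusted p under 0.05, 3 genes were higher, beside 5.7% of probe sets, and 0 lower, beside 3.31%. They were Col6a5 at 1.42 ± 0.47 (SE; limma adjusted p = 0.293), Col6a6 at 1.47 ± 0.61 and Col3a1 at 2.14 ± 0.94. The Col6a5 means of 4.04 in anti-PD1 and 4.12 in lenvatinib were near the negative controls' median, which limits what its interaction shows. Col1a2 stood at 0.92 ± 0.55 and Col1a1 at 0.26 ± 0.45. For Col3a1 the arm means behind this were 7.96 ± 0.73 in the combination, 7.43 ± 1.45 in anti-PD1, 6.62 ± 0.89 in lenvatinib (SD, n = 5 each) and 8.23 ± 1.39 in placebo (SD, n = 6). All 3 treated means were below the placebo mean, and the combination mean was the nearest to it. When the fit weighted each array by its own spread, Col3a1, Col5a2 and Col6a5 passed, at adjusted p of 0.0436, 0.0491 and 0.0423, among 1691 probe sets that then passed.

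Pooling the arms by agent, 32 of 42 genes were lower in the lenvatinib-treated than in the lenvatinib-free tumours, beside 48.7% of probe sets, with a median of -0.15. Without the bright arrays the count was 24 and the median -0.03. Col15a1 stood at -0.37 ± 0.13 (SE; limma adjusted p = 0.829), Col5a2 at -0.40 ± 0.19 and Col5a1 at -0.45 ± 0.22, while Col3a1 stood at -0.54 ± 0.47 and Col1a1 at -0.22 ± 0.22. At an unadjusted p under 0.05, 2 genes were lower, Col15a1 and Col5a2, beside 4.06% of probe sets, and 0 were higher, beside 1.83%. In antibody-treated against antibody-free tumours, 21 genes were below 0 and 21 above, beside 51.2% of probe sets below. Col4a6 stood at 0.34 ± 0.15, the 1 gene higher at an unadjusted p under 0.05, beside 0.788% of probe sets, and 0 were lower, beside 0.73%. Col1a1 stood at -0.10 ± 0.22 and Col3a1 at 0.27 ± 0.47.

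Across the tumours, several fibrillar chains varied together. Col1a1 and Col1a2, whose products join in 1 molecule at a fixed ratio, had a Pearson r of 0.90 and a Spearman rho of 0.89 over the 21 tumours, each with a permutation p of 1e-05, the smallest that the resampling can give (8e-05 adjusted over the 16 pairs examined). Without the 2 tumours farthest from the median of Col1a1, r was 0.88. Within the 15 arrays with dimmer controls it was 0.95 and within the 6 brighter ones 0.86, and 0.93 over deviations from arm means. Col1a1 and Col3a1 had r of 0.83 and rho of 0.86, at the same permutation p, with 0.86 and 0.79 within the dimmer and the brighter arrays.

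Some relations read differently within the array sets than over all arrays. Col1a1 and Pdgfrb, the PDGF receptor of fibroblasts and pericytes, had r of -0.01 over 21 tumours (permutation p = 0.968), but r of 0.74 within the 15 dimmer arrays and 0.76 within the 6 brighter ones. Col1a1 and Serpinh1, which encodes the collagen-specific chaperone Hsp47, had r of 0.54 (permutation p = 0.0125, 0.0484 adjusted) when pooled, and 0.87 and 0.79 within the sets.

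**Figure D4:**
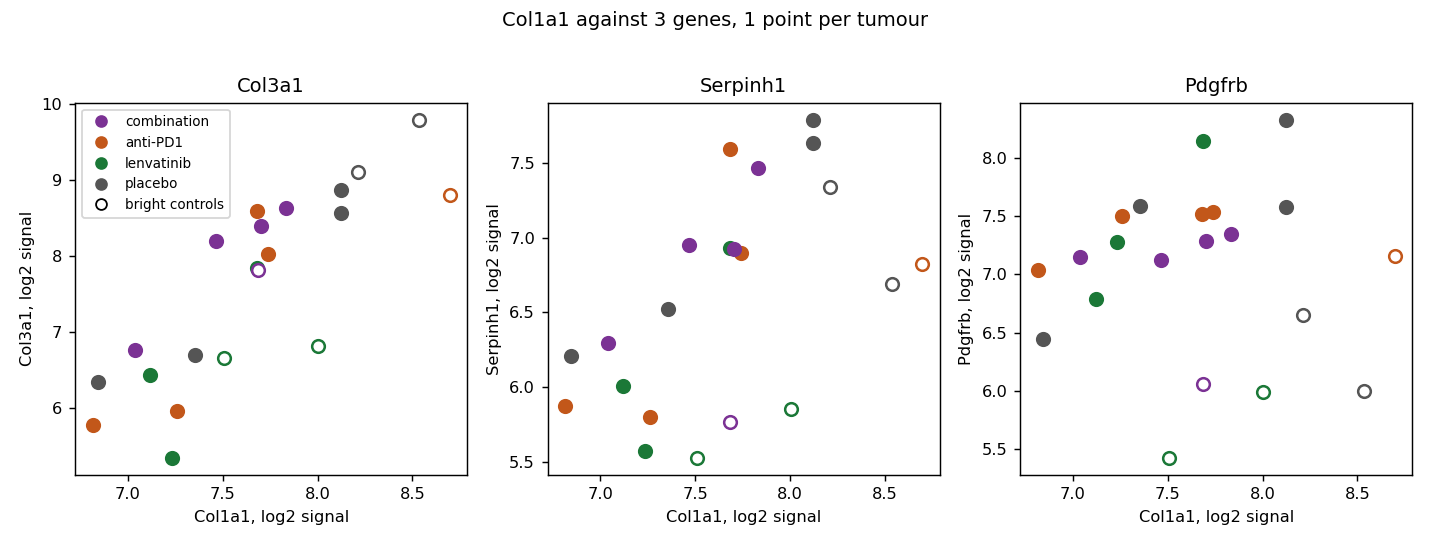
Log2 signal of Col1a1 against Col3a1, Serpinh1 and Pdgfrb, 1 point per tumour, coloured by arm; open points are the 6 arrays with bright controls. Within each set of arrays all 3 genes were higher where Col1a1 was higher, with r of 0.86 and 0.79, 0.87 and 0.79, and 0.74 and 0.76 in the 15 dimmer and the 6 brighter arrays.

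Within the 15 dimmer arrays, Col1a1 was set against each of the other 41 collagen genes. Both r and rho passed for 9 genes after adjustment over the 41, all positive: Col1a2 (r of 0.95), Col5a1 (0.90), Col3a1 (0.86), Col14a1 (0.85), Col6a2 (0.77), Col6a6 (0.77), Col5a2 (0.75), Col6a3 (0.71) and Col6a5 (0.65). They are some chains of types I, III, V and VI together with Col14a1, a fibril-associated collagen of the type I fibre surface. Other chains of types V and VI did not pass: Col6a1 (0.53), Col5a3 (0.37) and Col6a4 (-0.54). Nor did the fibrillar chains of other types, which ran from -0.40 (Col27a1) to 0.24 (Col2a1). Over all 21 arrays the r of the 9 genes ran from 0.38 (Col6a6) to 0.90 (Col1a2), with 0.45 for Col6a5, 0.48 for Col14a1 and 0.52 for Col6a2. Within the 6 brighter arrays it ran from 0.40 (Col6a3) to 0.94 (Col14a1), with 0.41 for Col6a6. None of the 6 basement membrane chains was among the 9. Their r with Col1a1 ran from -0.47 (Col4a3) to 0.55 (Col4a5) in the dimmer arrays, from 0.26 (Col4a6) to 0.71 (Col4a4) in the brighter ones and from -0.17 (Col4a6) to 0.54 (Col4a2) over all 21. These 9 genes were chosen on values of the same tumours, so their arm values are a description: all 9 lay below 0 in lenvatinib against placebo, with a median of -0.67, and all 9 above 0 in the combination against lenvatinib, with a median of 0.38. The other 32 genes had 19 below 0 and a median of -0.10 in lenvatinib against placebo, and 18 above 0 and a median of 0.03 in the combination against lenvatinib. In the combination against placebo, all 9 lay below 0 with a median of -0.265, beside 22 of the other 32 with -0.083. In anti-PD1 against placebo, 8 of the 9 lay below 0 with a median of -0.293, beside 14 of the other 32 with 0.019.

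Promoter windows are shown for Col1a2 and Col3a1, which tracked Col1a1 across tumours, to set the start regions of genes that varied together side by side. Each window is the 250 bases before the gene's start in RefSeq (build GRCm38.p6), 5′ to 3′ on the gene's strand, at chr6:4505368-4505617 (plus strand) for Col1a2 and chr1:45311288-45311537 (plus strand) for Col3a1. Capitals mark any of 3 motifs, searched on both strands: the TATA box letters TATAAA, the string CCAAT that NF-Y reads, and the Sp1 core GGGCGG.
Col1a2: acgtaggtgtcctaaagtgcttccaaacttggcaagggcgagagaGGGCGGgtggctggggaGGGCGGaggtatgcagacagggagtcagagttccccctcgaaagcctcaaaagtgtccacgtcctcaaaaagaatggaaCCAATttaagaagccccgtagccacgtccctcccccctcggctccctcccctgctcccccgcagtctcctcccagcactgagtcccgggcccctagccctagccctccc
Col3a1: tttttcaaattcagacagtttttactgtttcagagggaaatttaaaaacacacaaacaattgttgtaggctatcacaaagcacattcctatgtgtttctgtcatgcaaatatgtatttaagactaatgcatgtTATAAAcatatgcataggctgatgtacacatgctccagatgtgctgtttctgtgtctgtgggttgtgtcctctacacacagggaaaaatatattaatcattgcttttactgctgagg

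The Col1a2 window held CCAAT 109 bases before the start, and GGGCGG 205 and 188 bases before it. The Col3a1 window held TATAAA 117 bases before the start and neither of the other motifs. Over the 37 windows found for 34 of the 42 genes, GGGCGG was in 56.76%, against 32.74% of all 32851 windows. CCAAT was in 32.43% against 33.85%, and TATAAA in 13.51% against 12.37%. Col4a1 and Col4a2 are transcribed away from each other, and their start regions share 78 bases when bases past each start are included. Whether their windows before the start overlap was not tested. Signals of Col4a1 and Col4a2 had r of 0.46 over the 21 tumours (permutation p = 0.0352, 0.0705 adjusted). It was 0.13 without the 2 tumours farthest from the median of Col4a1.

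Other pairs linked collagens to markers of cell types. Col1a1 and Afp, a fetal liver protein that hepatoma cells make, had r of -0.48 (permutation p = 0.0266, 0.0607 adjusted) and rho of -0.61 (0.0038, 0.0152 adjusted), with r of -0.47 and -0.61 within the dimmer and the brighter arrays. Col1a1 and the fat cell hormone gene Adipoq had r of 0.51 (0.0197, 0.0526 adjusted) and rho of 0.54 (0.0119, 0.0319 adjusted). Col18a1 and Alb had r of 0.44 (0.0434, 0.0772 adjusted) and rho of 0.59 (0.00509, 0.0163 adjusted). Within the dimmer and the brighter arrays their r was 0.28 and 0.77. Col17a1, a hemidesmosome collagen of skin, and Krt14 had r of 0.52 (0.0151, 0.0484 adjusted) and rho of 0.41 (0.0637, 0.127 adjusted). Without anti-PD1 mouse 4 and lenvatinib mouse 2, r became 0.27. Col17a1 was above the negative controls' median on 13 of 21 arrays. All these p-values are from permutation tests. Col15a1 and the endothelial gene Pecam1 had r of 0.01, and Col4a1 and Pecam1 -0.23.

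Among the 4116 named genes above background in at least 1 arm, those with the highest r with Col1a1 over the 21 arrays were Bnc2 (0.87), Col3a1 (0.83), Mcee (0.83), Dennd10 (0.81) and Nmt2 (0.80). Those most like Col4a1 were Acap3 (0.68), Cort (0.68), Myg1 (0.66), Imp3 (0.63) and Cdr2 (0.62). Those most like Col17a1 were Fam25c (0.70), Plet1 (0.64), Krtap5-1 (0.61), Ly6g6d (0.61) and Rin2 (0.60). Spearman rho ran from 0.78 to 0.89 for the Col1a1 genes, 0.44 to 0.74 for the Col4a1 genes and 0.54 to 0.63 for the Col17a1 genes. All points in these rankings share arrays and normalization, and no p is attached to them. The rankings pool the bright and the dimmer arrays, and r within each set was not computed.

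Genes that act on collagen after translation, bind it or lie beside it in the matrix were read from 5 lists. No member passed the limma threshold in any comparison. In lenvatinib against placebo, the modification and folding list had 4 of 17 measured genes lower and 0 higher at an unadjusted p under 0.05, beside 4.05% and 2.92% of all probe sets. The processing and cross-linking list had 1 of 12 lower and 0 higher, and the receptors 0 of 8 in either direction. The degradation list had 3 of 11 lower and 0 higher. The list of fibril-associated proteoglycans and glycoproteins, which also holds basement membrane genes such as Lama5, had 3 of 16 lower and 1 higher. The list medians were -0.06, -0.03, -0.07, -0.10 and -0.33, beside -0.0064 over all probe sets.

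The genes with the smallest p of each list in that comparison included Serpinh1, at -1.05 ± 0.37 (SE), and P3h4, a partner of lysyl hydroxylase, at -0.82 ± 0.33. Loxl1, a cross-linking oxidase, stood at -1.19 ± 0.42 and Pcolce2, which enhances procollagen trimming, at -0.51 ± 0.27. Of the degrading enzymes, Ctsk (cathepsin K) stood at -1.60 ± 0.56 and Mmp2 (gelatinase A) at -1.61 ± 0.63. Thbs2, a matricellular glycoprotein, stood at -1.20 ± 0.45 and Lama5, a laminin chain of basement membranes, at 0.84 ± 0.34. The collagen receptors Itga2 and Ddr1 stood at 1.23 ± 0.61 and 0.25 ± 0.21. None of these 10 passed, and the lowest limma adjusted p was 0.693. All 10 kept their sign over 30 alternative runs, but some sizes moved widely. Ctsk ran from -2.10 to -0.81, Loxl1 from -1.49 to -0.69, Pcolce2 from -0.66 to -0.13 and Ddr1 from 0.13 to 0.36. Leaving out 1 mouse was enough to bring Pcolce2 to -0.26 (lenvatinib mouse 1) and Ddr1 to 0.13 (placebo mouse 6).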

How the data were processed

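The authors deposited log2 signals. Per the submitters' processing notes they used oligo and RMA, whose versions are not stated. RMA is meant to bring all arrays to 1 distribution, so signals are relative. The deposited signals of the probe sets tested still differed in spread, with interquartile ranges from 2.41 to 3.25 between arrays. Differences between arrays therefore remained after this processing. The genome build behind the array is not given in the sources used here. The table has 29129 rows, 6923 of them controls, and the 22206 others were tested with no filter.

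All 21 arrays entered 1 fit of 4 arm means in limma 3.58.1 (statmod 1.5.0, R 4.3.3), with 9 contrasts and Benjamini-Hochberg adjustment over all probe sets at 0.05. The fit was tested on simulated data with planted changes larger than nearly all differences given here. That test does not show how well smaller differences would be found. Correlations used 100000 resamples in permutation tests. The number of arrays limits precision.

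The members, lists and tests were chosen with earlier results of these data known. The naming rule took 8 genes by role and, per contrast, the 4 smallest p among genes above the negative controls' 95th percentile. Only Col1a1 and Col3a1 were above it, so other genes with small p were named after their values were seen. Mouse numbers were checked for pairing: 15 of 30 same-numbered pairs correlated over 0.1 (median r 0.10), beside 48 of 135 pairs of different number (median r -0.04). No label ties same-numbered mice, so the numbers were not taken as pairs. These correlations cannot exclude a pairing. Mouse 1 of the combination, anti-PD1 and lenvatinib arms was on an array with bright controls, so the mouse number and the array sets are mixed here.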

Additional observations from a re-analysis of the deposited data

Results flagged for a closer look

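Within an arm, 15 of the 168 sets of values (42 genes in 4 arms, 8.9%) had 1 tumour whose gap to its nearest neighbour was above Dixon's 95% critical value. Chance flags about 1 in 20 sets. Of the 15, 12 were on arrays with bright hybridization controls. All values are log2 signals.

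In anti-PD1 mouse 1, Col28a1 was 8.01, against 6.85 to 6.97 in the other mice of that arm, Col4a4 was 6.73, Col6a1 was 6.86 and Col9a1 was 4.92, each the highest of its arm. Col10a1 was the lowest there, at 3.93. In lenvatinib mouse 1, Col26a1 was 6.05, Col28a1 was 7.79, Col2a1 was 6.1, Col6a4 was 5.13 and Col8a1 was 6.5, each the highest, and Col9a2 was the lowest at 5.24. In combination mouse 1, Col4a3 was the highest at 5.51.

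On arrays with dimmer controls, Col22a1 was the highest at 6.36 in lenvatinib mouse 3, Col11a2 the lowest at 5.83 in lenvatinib mouse 4, and Col13a1 the highest at 6.88 in combination mouse 5.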

How the results depend on the processing

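The count of collagen genes past the threshold was 0 in every contrast under every alternative run, except the interaction with array weights. There 3 of 42 passed, a share not above that of all probe sets. The exact two-sided permutation tests, adjusted over all probe sets, called 0 of 42 genes in each pair of arms, with 3 at an unadjusted p under 0.05 in lenvatinib against placebo (7.14%, beside 7.15% of all probe sets) and 1 to 3 in the other pairs (2.38% to 7.14%, beside 2.99% to 6.35%).

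Taken over only Col1a1 and Col3a1, the 2 genes whose mean over all 21 arrays was above the negative controls' 95th percentile, the median was -0.98 in lenvatinib against placebo, -0.51 in anti-PD1 against placebo, 0.69 in the combination against lenvatinib, 0.22 in the combination against anti-PD1, -0.47 in lenvatinib against anti-PD1, 1.20 in the interaction and -0.38 in lenvatinib-treated against lenvatinib-free. With the negative controls' median as the level, 41 genes were above background.

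Some differences near 0 turned their sign, and the cause was not tested. Col4a1 in lenvatinib against placebo was 0.0068 with cyclic loess, 0.019 with array weights, 0.12 with the mouse number as a replicate block and 0.052 without the bright arrays. Leaving out 1 mouse gave -0.14 to 0.12 for it and -0.060 to 0.16 for Col4a2, which was -0.044 with array weights. Col3a1 in the combination against placebo was 0.055 with array weights, 0.047 with the replicate block, 0.38 without the bright arrays and -0.64 to 0.047 without 1 mouse. Col1a1 in the combination against lenvatinib was -0.00333 with cyclic loess and -0.062 to 0.16 without 1 mouse. Against anti-PD1 it was 0.23 with array weights, 0.14 without the bright arrays and -0.30 to 0.17 without 1 mouse. Leaving out 1 mouse moved 29 of the 64 single differences examined by over 1.5 times. Without 1 mouse Col1a1 was -0.34 to 0.13 in lenvatinib against anti-PD1 and -0.23 to 0.0074 in antibody-treated against antibody-free.

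With the replicate block the collagen median in lenvatinib against placebo was -0.15, and the block changed no call. Only the placebo arm has a mouse 6. The block's differences between arms are therefore those found without that mouse, and not a separate check. The planned fixed limit on the control signal did not separate the bright arrays and was not run, and the widest gap, chosen after seeing the data, took its place. No gene had several probe sets, so averaging them was not run. Signals this close to the negative controls limit what the arrays can show for most chains.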
